A study of Mus musculus with 6 samples.

Results

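Rab genes encode small GTPases that direct membrane traffic, and their RNA was followed from whole hippocampus into the RNA pulled down on microglial ribosomes. The family was taken as every protein-coding gene whose GENCODE M21 symbol is Rab followed by a number and at most a letter and a digit, which gave 59 of the 39017 genes in the count table. Of these, 55 passed the filter on low counts and were tested. Rab17 and Rab44 had no count in any library, and Rab19 and Rab25 had too few to test. The filter keeps genes that are high enough in either group, so the 55 are not a neutral sample of the family.

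A Rab protein switches between a GTP-bound form, which sits on a membrane and recruits effectors, and a GDP-bound form, which GDI proteins hold in the cytosol. Exchange factors load GTP and GTPase-activating proteins end the active state, and each Rab marks its own compartment, such as the Golgi, the early endosome or the lysosome. In neurons the Rab3 group sits on synaptic vesicles, while phagocytes such as microglia use other members to mature phagosomes and to move lysosome-related organelles.

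Hippocampus came from female mice of the strain C57BL/6 and the genotype Tmem119-Cre:RiboTag. In such mice Cre, made under the control of the microglial gene Tmem119, switches on an HA-tagged form of a ribosomal protein. The 3 IP libraries hold RNA recovered with anti-HA magnetic beads and the 3 input libraries hold RNA taken with no antibody. All 6 libraries share the genotype, the labels give no age, and a pull-down from mice without the tag was not analysed here. Each IP library shares a title code with 1 input library, and these couples are called pairs 1, 2 and 3. The labels do not tie a code to an animal, and the p-values given measure only the spread between these libraries, which may be technical. Library totals were 18448897 to 20422140 counts in input and 10757351 to 18558497 in IP. Levels are in CPM, counts scaled to library size with TMM factors, and 3 counts, the limit that a count of 0 allows, equal 0.140 to 0.280 CPM, for counting error only.

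The labels name microglia as the cell type of every library, but only the IP libraries were led by microglial markers. The summed level of 7 microglial markers was 359 to 488 CPM in input and 24790 to 32099 CPM in IP, and all 7 were called higher in IP. The sum of 7 neuronal markers was 7868 to 9363 CPM in input and 825 to 1043 CPM in IP. Sums of 6 astrocyte and 6 oligodendrocyte markers were 2274 to 2802 and 4291 to 7180 CPM in input and 448 to 508 and 807 to 1387 CPM in IP. The sum of 6 endothelial and mural markers went the way of the microglial ones, from 36.1 to 83.4 CPM in input to 164 to 282 CPM in IP, with 4 of 6 called higher. Those 4 were Cldn5, Flt1, Pecam1 and Kdr, while the mural Pdgfrb and Rgs5 were not called, at log2 folds of 0.74 and -0.06. No marker of these lists was at 0 in all IP libraries, and the part of RNA from other cells in any Rab value was not tested. In bulk RNA, fewer cells of a type and less RNA per cell cannot be told apart.

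Rab RNA made up less of the IP libraries than of the inputs, and other members dominated it. Rab genes took 0.633% to 0.657% of the counts of an input library and 0.389% to 0.411% of those of an IP library. Per kilobase of exon, the 11 members put on a neuronal list held 44.1% to 44.6% of the summed Rab level in input and 11.9% to 13.3% in IP. The 10 members put on a myeloid list held 1.92% to 2.06% in input and 12.7% to 14.4% in IP. Rab3a alone, the main Rab of synaptic vesicles, held 26.9%, 28.8% and 27.0% of the family level in inputs 1, 2 and 3 and 3.86%, 3.86% and 3.40% in IPs 1, 2 and 3. No input library overlapped an IP library in any of these shares. Both lists were drawn up with earlier results of these libraries known, so the list shares are not independent evidence of direction. The other 38 genes made up 53.3% to 53.9% of the level in input and 72.8% to 75.1% in IP.

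**Figure D1:**
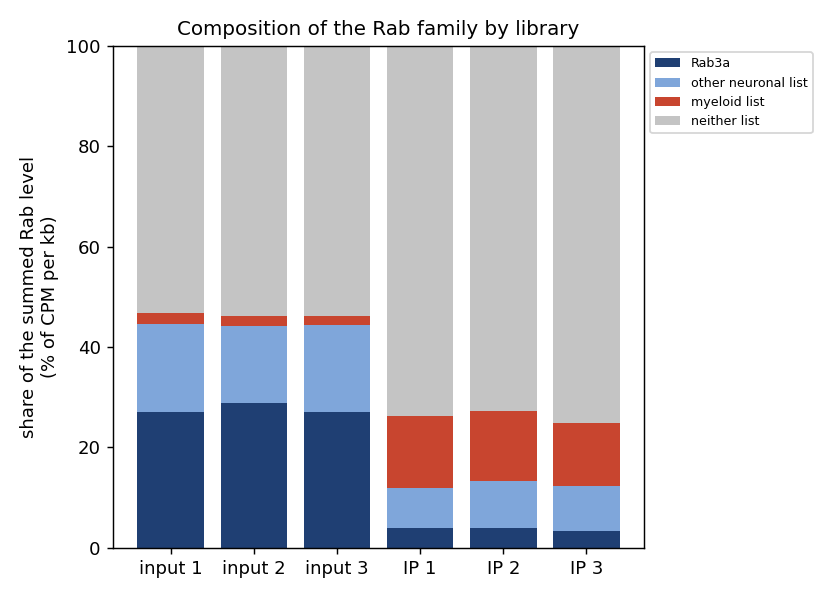
Share of the summed Rab level, in % of CPM per kilobase of exon, held by Rab3a, the other neuronal members, the myeloid members and the members on neither list, with a bar for each library. The Rab3a block shrinks from 26.9% to 28.8% in input to 3.40% to 3.86% in IP, and the myeloid block grows from 1.92% to 2.06% to 12.7% to 14.4%. Both lists were drawn up with earlier results known.

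The most abundant members also differed. Ordered by mean CPM per kilobase, input was led by Rab3a at 550.3, Rab6b at 163, Rab1b at 130.3, Rab6a at 128 and Rab2a at 106. IP was led by Rab5c at 190.1, Rab1b at 115, Rab7 at 112, Rab6b at 67.1 and Rab35 at 63.1. Rab5c drives fusion of early endosomes, Rab1b carries cargo from the endoplasmic reticulum to the Golgi, and Rab7 controls late endosomes and lysosomes. Rab1b stood at 277, 343 and 268 CPM in inputs 1, 2 and 3 and at 238, 290.4 and 255 CPM in IPs 1, 2 and 3, a log2 fold of -0.18 (SE 0.16, edgeR adjusted p = 0.38). Rab7 stood at 242, 264 and 248 CPM in input and at 310.4, 297 and 269.6 CPM in IP, a log2 fold of 0.22 (SE 0.13, edgeR adjusted p = 0.21). The groups of Rab1b overlapped. Those of Rab7 did not, although Rab7 was called only with the length correction, at a log2 fold of 0.45.

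Of the 55 tested members, 12 were called higher and 20 lower in IP by edgeR's quasi-likelihood test, with Benjamini-Hochberg adjustment over all 16196 tested genes and a limit of 0.05. Over all tested genes, 23.8% were called higher and 23.9% lower. The share of higher members, 21.8%, was near that background, and the share of lower members, 36.4%, was above it. The median log2 fold of the family was -0.49, against -0.10 over all tested genes. All 3 IP libraries lay above all 3 inputs for 16 members and below them for 26, where all tested genes gave 29.0% and 32.9%. Every one of the 32 called members moved the same way in all 3 pairs, and 14 of them differed by more than 4-fold. The calls were made on these same libraries, so that agreement is no added support. The matching shares among all called genes are not given here. When a change of more than 2-fold was required, 5 members were higher and 12 lower, against 13.4% and 12.5% of all genes.

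**Figure D2:**
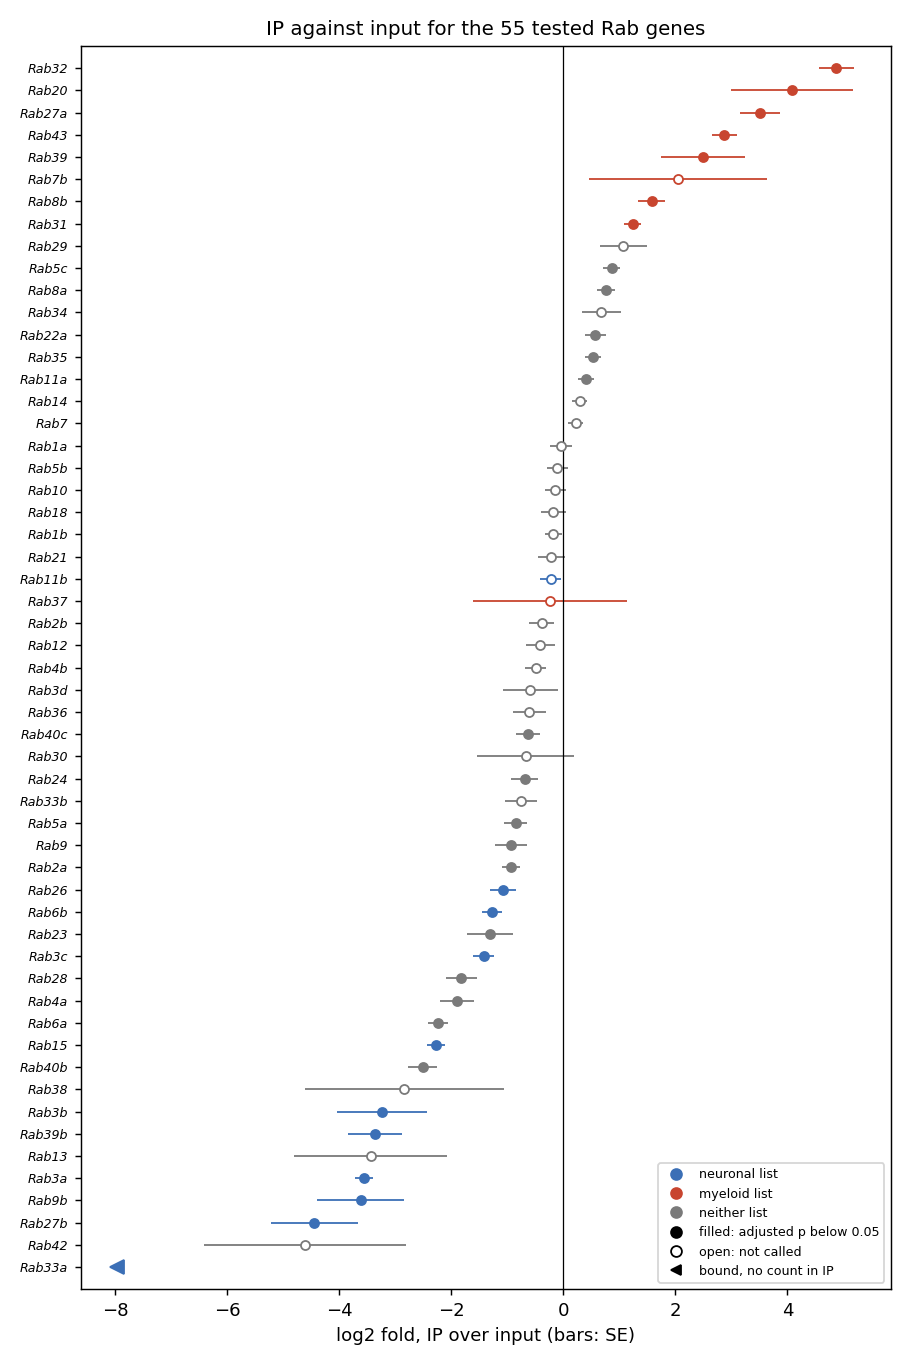
Log2 fold of IP over input with its SE for the 55 tested Rab genes, ordered by fold and coloured by list, with filled points for called genes. Myeloid members reach up to Rab32 at 4.87, neuronal members lie below 0 among members on neither list, and Rab33a, with no count in IP, is drawn at its bound of 249-fold.

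Most myeloid members were higher in IP. Of 10 listed, 9 were tested and 7 were called higher, none lower, with a median log2 fold of 2.50. Over all tested genes 23.8% were called higher. The 7 myeloid members called higher were Rab32, Rab20, Rab27a, Rab43, Rab39, Rab8b and Rab31. The list was drawn up with earlier results of these libraries known, so it is not independent evidence of direction. The endothelial and mural marker sum given above moved in the same direction as these genes, though its mural genes were not called. Its part in the myeloid members was not tested.

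Rab32, which serves lysosome-related organelles and mitochondria, had the highest fold of the tested members. It stood at 1.91, 2.13 and 2.001 CPM in inputs 1, 2 and 3 and at 68.0, 69.0 and 40.1 CPM in IPs 1, 2 and 3. The inputs lay close together, and IP library 3 was the lowest of its group. Its log2 fold was 4.87 (SE 0.31, edgeR adjusted p = 1.9e-06).

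Rab27a, which docks secretory lysosomes and melanosomes at the plasma membrane, stood at 7.13, 10.7 and 5.28 CPM in input and at 105, 53.7 and 105 CPM in IP. IP library 2 was the lowest of its group and still above every input. The log2 fold was 3.52 (SE 0.36, edgeR adjusted p = 3.7e-05). Rab43, a Golgi Rab that in mouse dendritic cells takes part in cross-presentation, stood at 23.7, 15.6 and 18.6 CPM in input and at 146, 160.3 and 117 CPM in IP. The groups did not overlap, with a log2 fold of 2.87 (SE 0.22, edgeR adjusted p = 6.0e-06). Of the 50-base words of Rab43, 90.4% also occur in the overlapping gene Gm45140, which is not in the count table, so the counts of Rab43 are uncertain.

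Rab20, which acts on maturing phagosomes of macrophages, stood at 2.10, 1.25 and 0 CPM in input and at 15.5, 33.5 and 8.03 CPM in IP. Every IP library was above every input, but the spread within each group was wide. The log2 fold of Rab20 was 4.08 (SE 1.08, edgeR adjusted p = 0.012). Its call was lost without IP library 2, or pair 1 or 2 (adjusted p = 0.050 to 0.19), with log2 folds of 3.37, 5.04 and 3.46 in that order. The log2 fold was 4.91 without input library 1, 3.47 without input library 3 and 5.27 with limma-voom. On the opposite strand lies E230013L22Rik, which covers 25.6% of the exon bases of Rab20 and whose own log2 fold was 4.40. The kit keeps the strand but the strand setting of the counting is not given, so reads of these genes may not have been separated.

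Rab39, which acts in phagosomes of macrophages, was low, at 2.10, 1.98 and 0.616 CPM in input and at 4.75, 12.4 and 9.53 CPM in IP. The groups did not overlap, and the log2 fold was 2.50 (SE 0.75, edgeR adjusted p = 0.021). That call was lost without input library 3, IP library 2, or pair 2 or 3 (adjusted p = 0.066 to 0.14). Rab8b, which carries cargo to the cell surface, stood at 33.2, 30.1 and 51.3 CPM in input and at 138, 108 and 95.5 CPM in IP. It had a log2 fold of 1.58 (SE 0.25, edgeR adjusted p = 0.00059). Rab31, which moves cargo between the trans-Golgi network and endosomes, stood at 91.4, 96.7 and 82.4 CPM in input and at 203, 227 and 208 CPM in IP. Both genes had groups that did not overlap, and Rab31 had a log2 fold of 1.24 (SE 0.15, edgeR adjusted p = 9.3e-05).

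The other myeloid members were not called. Rab7b, a late endosomal relative of Rab7, stood at 1.21, 0.312 and 0.923 CPM in input and at 8.58, 1.53 and 0 CPM in IP, so its value rests on IP library 1. The log2 fold of 2.04 (edgeR adjusted p = 0.33) was -0.08 without that library, 0.32 without pair 1 and 2.69 without pair 3. Rab37, a Rab of secretory granules, stood at 1.68, 2.81 and 2.77 CPM in input and at 3.89, 2.22 and 0 CPM in IP, with overlapping groups (log2 fold -0.24 with SE 1.37, edgeR adjusted p = 0.90). The log2 fold of Rab37 was -1.12 without IP library 1, -1.32 without pair 1 and 0.42 without pair 3. Rab44 had no count in any library.

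Neuronal members lay below 0. Of 11 listed, all were tested, and 10 were called lower and none higher, where 23.9% of all tested genes were called lower. Their median log2 fold was -3.24, which is the same with Rab33a at its bound. This list too was drawn up with earlier results known. Some members on neither list were also lower, such as Rab40b at -2.51, which lay above the neuronal median. The neuronal Rab6b and Rab26 lay above Rab4a, which is on neither list, at -1.90. The neuronal marker sum given above moved in the same direction, and its part was not tested.

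Rab33a, which in neurons rides on vesicles bound for the growing axon, had no read in any IP library. It lies on chromosome X (ENSMUSG00000031104, 48519285 to 48530232, plus strand, GRCm38). It had 315, 402 and 381 counts in inputs 1, 2 and 3, or 14.7, 20.9 and 19.5 CPM, and 0 in each IP library. With a floor of 3 counts over the IP group it was at least 249-fold lower than in input (edgeR adjusted p = 3.2e-05). In all, 7657 genes had a mean input level at least as high as its 18.4 CPM, and Rab33a was the only 1 of them with no count in the IP group.

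Rab3a stood at 1183, 1278 and 1215 CPM in inputs 1, 2 and 3 and at 108, 114 and 89.1 CPM in IPs 1, 2 and 3. The groups lay far apart, with a log2 fold of -3.56 (SE 0.16, edgeR adjusted p = 2.3e-07). Rab3b, another Rab of synaptic vesicles, stood at 79.0, 129 and 48.6 CPM in input and at 8.96, 17.6 and 0.560 CPM in IP. Pair 3 was the lowest in both groups. The log2 fold of -3.24 (SE 0.80, edgeR adjusted p = 0.0083) was -4.11 without IP library 2, and the call was lost without pair 1 (adjusted p = 0.082) and with no filter (adjusted p = 0.056). Rab3c, a close relative, was less reduced, at 179, 166 and 245 CPM in input and 72.9, 67.4 and 79.7 CPM in IP. For Rab3c the log2 fold was -1.43 (SE 0.19, edgeR adjusted p = 0.00019), or -2.17 with a correction for transcript length.

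Rab27b, the relative of Rab27a that acts in neurons and secretory epithelia, stood at 15.9, 16.2 and 23.8 CPM in input and at 0.432, 1.96 and 0.187 CPM in IP. IP library 2 was the highest of its group. The log2 fold was -4.44 (SE 0.77, edgeR adjusted p = 0.0011), or -5.82 without IP library 2, -5.92 without pair 2 and -3.82 without pair 3. Rab9b, a close relative of the late endosomal Rab9, stood at 20.8, 17.9 and 24.8 CPM in input and at 2.64, 2.30 and 0.0934 CPM in IP. IP library 3 was far below the other IP libraries. The log2 fold of Rab9b was -3.62 (SE 0.78, edgeR adjusted p = 0.0039), or -2.99 without pair 3 and -4.22 with limma-voom, and the call was lost without pair 2 (adjusted p = 0.054).

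Rab39b, whose human counterpart is mutated in a form of intellectual disability with parkinsonism, stood at 24.8, 25.6 and 25.0 CPM in input and at 1.62, 4.35 and 1.401 CPM in IP. Its input libraries were nearly level, and IP library 2 was the highest of its group. The log2 fold was -3.36 (SE 0.49, edgeR adjusted p = 0.00036), or -4.06 without IP library 2 and -4.05 without pair 2. Gm15063, on the opposite strand, covers 18.6% of its exon bases and had a log2 fold of -6.42.

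Of the remaining neuronal members 3 were called lower and Rab11b was not called. Rab15, which acts in endocytic recycling, went from 368, 305 and 347 CPM in input to 79.8, 70.2 and 60.6 CPM in IP (log2 fold -2.27 with SE 0.17, edgeR adjusted p = 4.1e-06). Rab6b, the neuronal Golgi Rab, went from 896, 641 and 916 CPM to 286, 382 and 344 CPM (log2 fold -1.28 with SE 0.18, edgeR adjusted p = 0.00035). Rab26, linked to clearance of synaptic vesicles by autophagy, went from 40.6, 47.2 and 41.0 CPM to 21.1, 24.1 and 15.7 CPM (log2 fold -1.08 with SE 0.24, edgeR adjusted p = 0.0045). In these 3 genes the groups stayed apart. Rab11b, a recycling Rab abundant in brain, was at 76.8, 82.5 and 76.5 CPM in input and 60.8, 82.5 and 57.9 CPM in IP, with overlapping groups (log2 fold -0.23 with SE 0.19, edgeR adjusted p = 0.35). With the length correction it was called lower, at a log2 fold of -0.75 (edgeR adjusted p = 0.021).

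**Figure D3:**
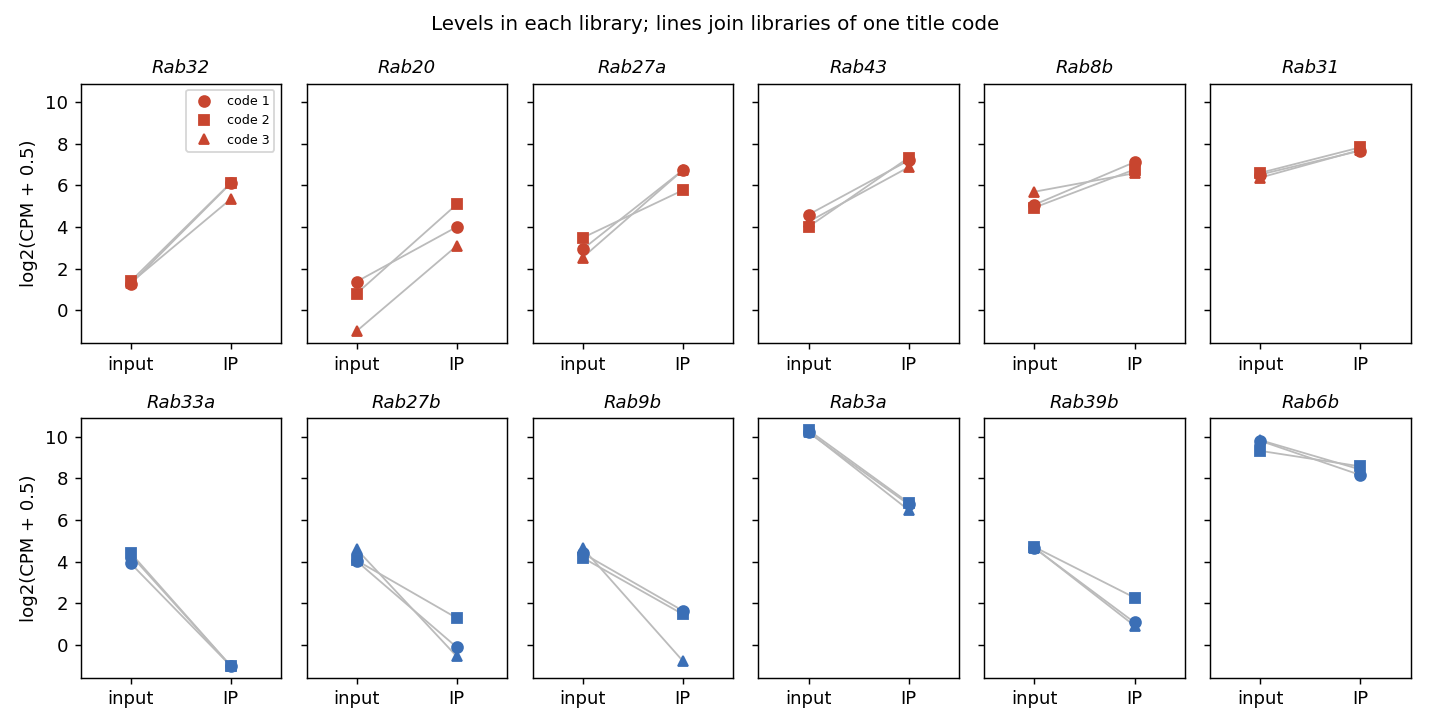
Level of 6 myeloid (red) and 6 neuronal (blue) Rab genes in each library, as log2(CPM + 0.5). All were picked from the called members, and a line joins the libraries of a title code. The listed members Rab7b, Rab37 and Rab11b, which were not called and did not move the same way in all pairs, are not drawn. Every line of the upper row rises and every line of the lower row falls, and the 3 IP libraries of Rab33a sit together at the value of a count of 0.

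Upstream sequences are shown for the called members with the highest folds, Rab32 and Rab20, for Rab33a, which had no count in IP, and for Rab3a, the most abundant Rab of input. RefSeq promoter windows on GRCm38.p6, 300 bases each and written on the strand of the gene, run from 250 bases before a start to 50 after it, and 48 of the 59 members have at least 1. Capitals mark matches, on either strand, to GAGGAAGT, the core bound by the myeloid factor PU.1, to its shorter ETS form GGAAGT, which lies within it, to the E-box CACGTG, and to TGACGTCA, the cAMP response element. The window of Rab32 is chr10:10558158-10558457, minus strand, and that of Rab20 is chr8:11478591-11478890, minus strand. That of Rab33a is chrX:48519035-48519334, plus strand, and the more upstream of the 2 windows of Rab3a is chr8:70754453-70754752, plus strand.
Rab32: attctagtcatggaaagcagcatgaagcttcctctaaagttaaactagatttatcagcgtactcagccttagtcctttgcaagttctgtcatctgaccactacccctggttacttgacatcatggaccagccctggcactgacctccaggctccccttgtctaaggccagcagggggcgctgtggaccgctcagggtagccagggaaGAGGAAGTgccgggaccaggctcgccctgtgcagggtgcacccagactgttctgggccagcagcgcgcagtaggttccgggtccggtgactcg
Rab20: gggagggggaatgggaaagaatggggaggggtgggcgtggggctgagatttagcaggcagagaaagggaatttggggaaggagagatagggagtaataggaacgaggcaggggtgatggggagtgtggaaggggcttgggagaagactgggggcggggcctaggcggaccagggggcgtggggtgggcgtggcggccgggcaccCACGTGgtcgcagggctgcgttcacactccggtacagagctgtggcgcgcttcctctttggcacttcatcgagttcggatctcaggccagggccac
Rab33a: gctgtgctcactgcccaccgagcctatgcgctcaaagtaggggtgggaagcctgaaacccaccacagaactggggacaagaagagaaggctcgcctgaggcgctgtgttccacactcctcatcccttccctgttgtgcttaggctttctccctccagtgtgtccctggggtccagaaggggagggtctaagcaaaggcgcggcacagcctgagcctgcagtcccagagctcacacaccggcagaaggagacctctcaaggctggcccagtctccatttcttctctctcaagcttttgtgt
Rab3a: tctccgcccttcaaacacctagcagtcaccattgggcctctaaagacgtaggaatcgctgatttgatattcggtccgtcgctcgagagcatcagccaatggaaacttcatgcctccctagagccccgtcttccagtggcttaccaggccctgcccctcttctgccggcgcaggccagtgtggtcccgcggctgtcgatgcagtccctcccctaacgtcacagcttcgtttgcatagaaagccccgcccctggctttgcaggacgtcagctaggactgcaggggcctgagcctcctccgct

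The Rab32 window holds the long PU.1 word, starting 43 bases before its transcription start. Of the 48 members with a window, 2 hold it, Rab32 and Rab2b, against 3.69% of the 27025 genes of the whole table. Rab2b was not called, at a log2 fold of -0.39. The short form was found in 13 of the 48 members and in 26.5% of all genes. It was in 5 of the 12 members called higher, which were Rab32, Rab27a, Rab5c, Rab35 and Rab11a. It was also in 3 of 16 called lower that have a window, and in 2 of the 7 myeloid members that have a window. Rab20 holds an E-box 46 bases before its start, a word found in 6 of the 48 members, 2 called higher and 3 called lower, and in 8.09% of all genes. The cAMP response element was found in Rab25 and Rab5a and in 2.03% of all genes. None of these words was found in the windows of the 9 neuronal members that have 1. A match says only that these letters are in this window.

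Within a minority of the sets of close relatives the leading member changed between input and IP. Shares are of CPM per kilobase within a set and are descriptions with no test. Of 16 sets, 5 had another leader in IP by mean share, which were Rab33a/Rab33b, Rab39/Rab39b, Rab32/Rab38, Rab40b/Rab40c and Rab8a/Rab8b. With the longest transcript as the length 6 sets did so, and with no length scaling 4. Rab27a/Rab27b was added in both, while Rab33a/Rab33b and Rab40b/Rab40c dropped out with no scaling, where Rab33b and Rab40c already led in input at 57.5% and 53.6%.

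Rab27a held 55.3%, 64.4% and 37.9% of its set with Rab27b in inputs 1, 2 and 3 and 99.8%, 98.7% and 99.9% in IPs 1, 2 and 3. The set was mixed in tissue and almost all Rab27a in IP. Rab39 held 8.83%, 8.12% and 2.74% in input and 77.0%, 76.5% and 88.6% in IP, the rest being Rab39b. Rab32 held 28.9%, 49.7% and 39.1% beside its relative Rab38 in input and 100%, 98.0% and 100% in IP. Rab38, a Rab of melanosomes, was low throughout, at 3.17, 1.46 and 2.10 CPM in input and 0, 0.938 and 0 CPM in IP, and was not called (edgeR adjusted p = 0.22) unless IP library 2 or pair 2 was left out.

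Rab33b, which works at the Golgi and in autophagy, took the whole of its set in IP, after 32.2%, 26.0% and 34.3% in input. It was at 21.3, 22.5 and 31.1 CPM in input and 17.7, 13.2 and 13.4 CPM in IP (log2 fold -0.75 with SE 0.29, edgeR adjusted p = 0.055), so its larger share came with no higher level. Rab40c, which joins a ubiquitin ligase, went from 46.0%, 44.9% and 38.0% of its set to 74.4%, 75.8% and 70.8%. Both members of that set were called lower, and Rab40b went from 47.0, 42.9 and 46.1 CPM to 6.69, 7.33 and 9.90 CPM (log2 fold -2.51 with SE 0.26, edgeR adjusted p = 3.8e-05). Rab8b went from 33.2%, 31.7% and 48.7% of its set with Rab8a to 56.8%, 51.1% and 47.7%, so input library 3 lay above IP library 3 and the groups overlapped.

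**Figure D4:**
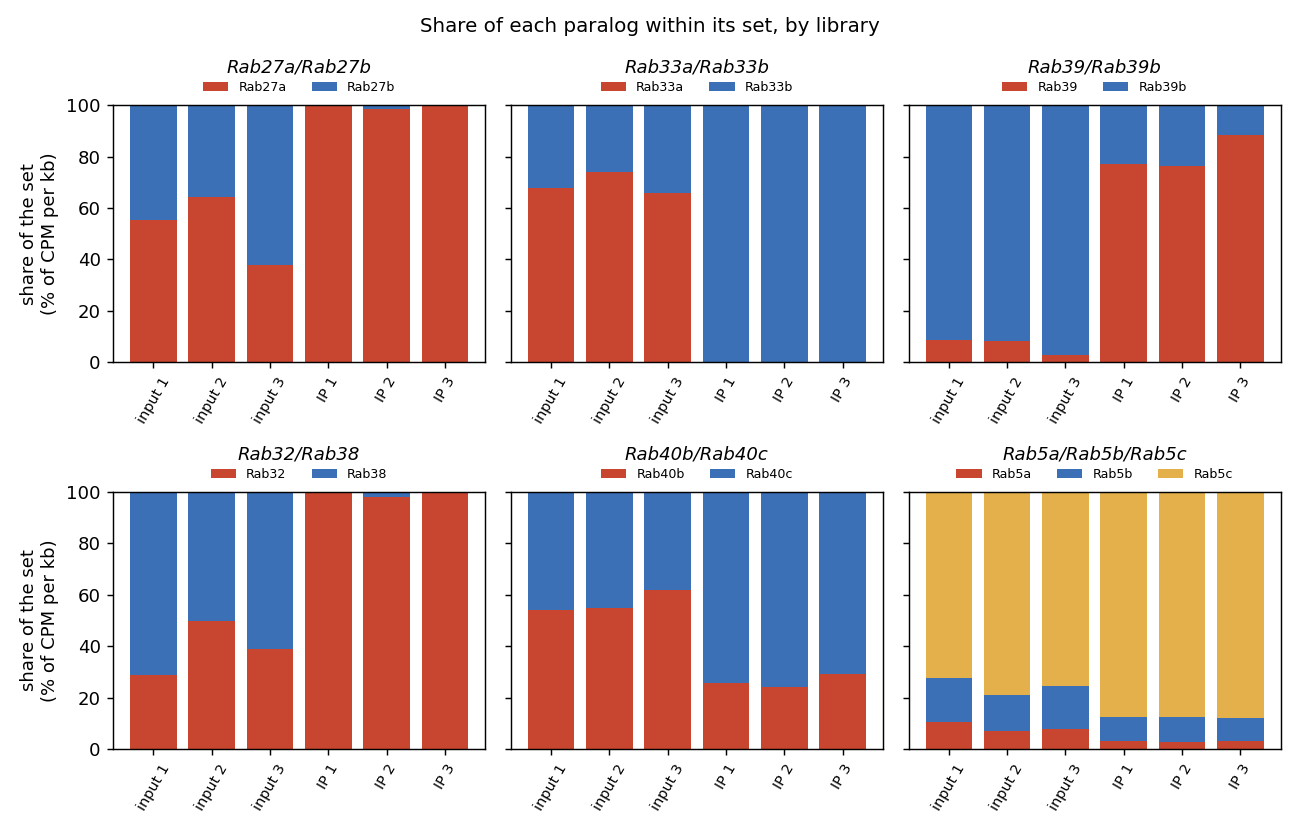
Share of each paralog within 6 sets, in % of CPM per kilobase of exon, with a bar for each of the 3 input and 3 IP libraries. Rab27a, Rab39 and Rab32 hold 76.5% or more of their sets in every IP library, while Rab33a is at 0 there.

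Members of the early endosome and of recycling routes were called in both directions. Of 9 tested early endosomal members 4 were higher and 2 lower, or 44.4% and 22.2%. All tested genes gave 23.8% and 23.9%, so the lower share was near that background. Rab5c went from 211, 247 and 231 CPM in input to 400.3, 488 and 363 CPM in IP (log2 fold 0.86 with SE 0.16, edgeR adjusted p = 0.0015). Rab5a, its relative in endosome fusion, went from 72.8, 52.1 and 58.3 CPM to 35.6, 35.0 and 30.8 CPM (log2 fold -0.85 with SE 0.20, edgeR adjusted p = 0.0068), a call lost without pair 1 (adjusted p = 0.077). Rab5b was at 95.4, 84.1 and 96.7 CPM and 80.5, 105 and 70.9 CPM, with overlapping groups (log2 fold -0.11). Of the Rab5 level, Rab5c held 72.5%, 79.0% and 75.5% in input and 87.6%, 87.5% and 87.9% in IP, with no overlap.

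Rab4a, which returns receptors to the surface by the fast route, went from 66.9, 64.1 and 50.6 CPM to 9.77, 16.7 and 22.4 CPM (log2 fold -1.90 with SE 0.31, edgeR adjusted p = 0.00076). Rab22a, which feeds the recycling endosome, was at 51.3, 43.1 and 46.3 CPM in input and 57.6, 80.0 and 71.5 CPM in IP (log2 fold 0.57 with SE 0.19, edgeR adjusted p = 0.034). This call was lost without input library 1, 2 or 3, IP library 2 or 3, or pair 1, 2 or 3 (adjusted p = 0.054 to 0.21), with upper-quartile factors (adjusted p = 0.079) and with library totals alone (adjusted p = 0.066). The log2 fold of Rab22a changed sign, to -0.07, with the length correction.

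Of 10 tested members for recycling and delivery to the surface, 4 were higher and 1 lower, or 40% and 10%. The shares of all tested genes were 23.8% and 23.9%, and the difference of this small set from them was not tested. Rab8a, the relative of Rab8b, went from 65.8, 64.1 and 53.5 CPM in input to 104, 102 and 104 CPM in IP (log2 fold 0.76 with SE 0.16, edgeR adjusted p = 0.0037). Rab35, which links recycling to actin, went from 122, 117 and 132 CPM to 174, 169.7 and 190.1 CPM (log2 fold 0.53 with SE 0.14, edgeR adjusted p = 0.012), a call lost without input library 1, or pair 1 or 3 (adjusted p = 0.058 to 0.097). In both the groups did not overlap. Rab11a, the main Rab of the recycling endosome, was called at an edgeR adjusted p of 0.049 with a log2 fold of 0.40. The call of Rab11a was lost without input library 1, 2 or 3, IP library 1, 2 or 3, or pair 1, 2 or 3 (adjusted p = 0.062 to 0.19), with other scaling factors, with no filter and with thinned counts.

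Of 14 tested members of the endoplasmic reticulum and Golgi, 1 was higher, Rab43, and 4 were lower, Rab33a, Rab6b, Rab6a and Rab2a. These were 7.14% and 28.6%, against 23.8% and 23.9% of all tested genes, so the lower share was near the background. Rab6a, which directs retrograde transport to the Golgi, went from 485, 396 and 547 CPM to 113, 90.3 and 99.0 CPM (log2 fold -2.24 with SE 0.17, edgeR adjusted p = 6.2e-06). Mrpl48, on the opposite strand, covers 19.0% of its exon bases and had a log2 fold of -1.73. Rab2a, an early secretory Rab, went from 221, 219 and 239.6 CPM to 124, 98.8 and 132 CPM (log2 fold -0.93 with SE 0.16, edgeR adjusted p = 0.00098).

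In the other routes most calls were lower, except among members tied to lysosome-related organelles. All tested genes gave 23.8% higher and 23.9% lower. Of 6 tested members for regulated secretion 4 were lower (66.7%), which were Rab3a, Rab3b, Rab3c and Rab26, and none higher. All 5 of a mixed group that holds the ciliary Rab23 and Rab28 beside Rab24, Rab40b and Rab40c were lower, with log2 folds of -2.51 to -0.64. Of 6 late endosomal and phagosomal members 1 was higher and 3 lower, and of 5 tied to lysosome-related organelles 2 were higher and 1 lower. Rab29, a partner of the kinase Lrrk2, was at 7.41, 6.30 and 4.41 CPM in input and 12.4, 14.6 and 11.2 CPM in IP, with no overlap (log2 fold 1.07, edgeR adjusted p = 0.057). It was called without IP library 3 (adjusted p = 0.040), with DESeq2 (adjusted p = 0.035), with limma-voom (adjusted p = 0.029), with the stricter filter (adjusted p = 0.043) and with the length correction (adjusted p = 0.011).

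Some lower calls outside the neuronal list were weak. That of Rab23 (log2 fold -1.31, edgeR adjusted p = 0.025) was lost without input library 1, 2 or 3, or pair 1 or 2 (adjusted p = 0.054 to 0.12). That of Rab24 (log2 fold -0.69, edgeR adjusted p = 0.037) was lost without input library 1 or 2, IP library 2 or 3, or pair 2 or 3 (adjusted p = 0.068 to 0.23) and with the length correction (adjusted p = 0.20). Prelid1, on the opposite strand, covers 62.4% of the exon bases of Rab24. The call of Rab40c (log2 fold -0.64, edgeR adjusted p = 0.032) was lost without input library 1 or 2, IP library 1 or 2, or pair 1 or 2 (adjusted p = 0.053 to 0.28). That of Rab9 (log2 fold -0.93, edgeR adjusted p = 0.023) was lost without input library 1 or 3, IP library 1 or 2, or pair 1 or 2 (adjusted p = 0.053 to 0.15) and with the length correction (adjusted p = 0.26).

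Of the tested members 23 were not called, with log2 folds of -4.61 to 2.04, and in 10 of them the groups did not overlap. Over all tested genes, called or not, 29.0% had IP above input and 32.9% had IP below it with no overlap. The share among all genes not called is not given here, so the 10 cannot be set against it. Rab1a, Rab10, Rab14, Rab18 and Rab21, widely used Rabs of the secretory and endosomal routes, had log2 folds of -0.05, -0.15, 0.29, -0.18 and -0.21. Rab18 was called lower with the length correction, at a log2 fold of -0.80 (edgeR adjusted p = 0.0091). Several others had low counts. Rab42 had 90 counts over the inputs against 2 over the IP libraries, 30.6 times less by CPM (95% interval for counting error, 8.24 to 257), and was not called (edgeR adjusted p = 0.060) except without IP library 2, with DESeq2 and with limma-voom. Rab13, a Rab of tight junctions, was at 5.08, 5.47 and 5.95 CPM in input and at 1.35, 0.0853 and 0 CPM in IP. Its log2 fold of -3.44 (edgeR adjusted p = 0.064) was -6.74 without IP library 1. Rab13 was called there, without IP library 3 or pair 1 (adjusted p = 0.048 and 0.027), with thinned counts (adjusted p = 0.022), with limma-voom (adjusted p = 0.027) and with DESeq2 (adjusted p = 0.011). Rab19 had 0 counts in input and 0, 25 and 26 in IPs 1, 2 and 3, and Rab25, a Rab of epithelia, had 0 in input and 20, 23 and 0 in IP. Against a floor of 3 counts over the input group they were at least 25.0-fold and 21.1-fold higher in IP, with 1 IP library of each at 0 and no test.

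Over the 55 tested genes Spearman's rho of fold with transcript length was 0.15, and over the 11 neuronal members it was 0.28. These are descriptions across genes that share the same 6 libraries. Counts can also be shared between genes, and 9 members have over 15% of their exon bases or 50-base words in another gene. The highest shares of words were 93.1% in Rab4b, with Gm21983, 90.4% in Rab43 and 68.3% in Rab2b, with Gm43766, so values of these genes are uncertain. Gm21983 has counts of its own in the count table, while Gm43766 and the partner of Rab43 are not in it.

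Genes that control the Rab cycle were followed on lists of their own, chosen with earlier results of these data known. Over these lists fewer genes were higher and more were lower with the length correction, as given in a later section. Among genes for prenylation and GDI function, GDI proteins extract Rab proteins from membranes. Gdi2, a widely expressed GDI, went from 135, 172 and 158 CPM in inputs 1, 2 and 3 to 335, 349 and 315 CPM in IPs 1, 2 and 3 (log2 fold 1.10 with SE 0.15, edgeR adjusted p = 0.00021). Rabif, a chaperone of Rab proteins that have lost their nucleotide, had a log2 fold of -0.69 (edgeR adjusted p = 0.031). Its call was lost without input library 1, 2 or 3, IP library 1, or pair 1, 2 or 3 (adjusted p = 0.051 to 0.18).

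Of 32 exchange factors, all tested, 21 were higher and 2 lower, with a median log2 fold of 1.32, where all tested genes gave 23.8% higher, 23.9% lower and a median of -0.10. Rin3, which activates Rab5 and Rab31, went from 3.68, 4.95 and 1.59 CPM in input to 203, 296 and 183 CPM in IP (log2 fold 6.06 with SE 0.41, edgeR adjusted p = 2.6e-06). Dennd2c, a factor of the DENN family, had 10 counts in input and 862 in IP. Its log2 fold of 6.78 (edgeR adjusted p = 0.00042) was 6.18 and 9.20 without input libraries 1 and 3, 5.78 and 9.49 without pairs 1 and 3, 6.08 with a prior count of 2 and 7.67 with limma-voom. Rab3ip, or Rabin8, which activates Rab8, was lower at a log2 fold of -0.73 (SE 0.17, edgeR adjusted p = 0.0067), a call lost without pair 1 (adjusted p = 0.073). Dennd2d had 53 counts in input and 0 in IP, at least 12.03-fold lower. The call of Dennd2d (edgeR adjusted p = 0.038) was lost with no filter (adjusted p = 0.077) and without input library 1, 2 or 3, IP library 1, 2 or 3, or pair 1, 2 or 3 (adjusted p = 0.051 to 0.12).

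Further exchange factors were chosen after their values were seen. Hps1 and Hps4 form BLOC-3, the factor that activates Rab32 and Rab38. Hps4 went from 14.4, 18.4 and 11.2 CPM in input to 151, 206 and 152 CPM in IP (log2 fold 3.53 with SE 0.24, edgeR adjusted p = 2.8e-06), and Hps1 from 7.96, 8.95 and 8.98 CPM to 46.9, 36.0 and 34.5 CPM (log2 fold 2.18 with SE 0.26, edgeR adjusted p = 9.3e-05). Rab3il1, a relative of Rab3ip, went from 20.8, 9.21 and 15.1 CPM to 624, 611 and 429.6 CPM (log2 fold 5.20 with SE 0.32, edgeR adjusted p = 1.5e-06). In these 3 genes the groups did not overlap, and Rab3il1 and Rab3ip went opposite ways.

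Of 35 GTPase-activating proteins, all tested, 16 were higher and 3 lower, with a median log2 fold of 0.58, or 45.7% and 8.57% against the 23.8% and 23.9% of all tested genes. Tbc1d16 went from 49.6, 38.0 and 39.9 CPM in input to 325, 449.6 and 354 CPM in IP (log2 fold 3.15 with SE 0.19, edgeR adjusted p = 1.3e-06), or 2.53 with the length correction. Tbc1d4, known from glucose transporter traffic, had a log2 fold of 2.62 (SE 0.48, edgeR adjusted p = 0.0015), or 3.32 without pair 3. Rabgap1l was lower at a log2 fold of -1.80 (edgeR adjusted p = 0.0073), a call lost without pair 3 (adjusted p = 0.057). Tbc1d30 was lower at -1.14 (edgeR adjusted p = 0.042), a call lost without input library 1, 2 or 3, IP library 1 or 2, or pair 1 or 2 (adjusted p = 0.078 to 0.24), and stood at -1.82 and -1.81 without IP library 3 and pair 3.

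Of 42 effectors 38 were tested, with 12 higher and 8 lower and a median log2 fold of -0.15. These shares, 31.6% and 21.1%, were near the 23.8% and 23.9% of all tested genes. Mlph, or melanophilin, which ties Rab27a on melanosomes to myosin, stood at 0.652, 3.12 and 3.54 CPM in inputs 1, 2 and 3 and at 186, 279 and 226 CPM in IPs 1, 2 and 3. The groups did not overlap, and the log2 fold was 6.57 (SE 0.51, edgeR adjusted p = 6.5e-06). Unc13d, or Munc13-4, which primes Rab27a-bearing granules of blood cells, went from 1.02, 0.573 and 2.46 CPM to 12.6, 27.3 and 14.4 CPM (log2 fold 3.73 with SE 0.65, edgeR adjusted p = 0.0011). Without pair 2, input library 3 or pair 3 its log2 fold was 2.93, 4.46 or 4.59. Rph3a, the Rab3 effector rabphilin, went from 337, 248 and 314 CPM to 109.7, 108 and 105 CPM (log2 fold -1.48 with SE 0.16, edgeR adjusted p = 5.2e-05). Bicd1, a dynein adaptor of Rab6, had a log2 fold of -3.25 (SE 1.10, edgeR adjusted p = 0.035), or -4.99 and -4.96 without IP library 1 and pair 1. Its call was lost without input library 1, 2 or 3, IP library 2, or pair 2 (adjusted p = 0.080 to 0.21).

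The kinases known to act on Rab proteins, or related to one that does, differed from each other. Lrrk1 went from 1.49, 1.87 and 1.13 CPM in input to 90.5, 109 and 78.5 CPM in IP (log2 fold 5.94 with SE 0.29, edgeR adjusted p = 3.6e-07), or 5.28 with the length correction. Lrrk2, a gene of familial Parkinson disease in humans, was at 8.52, 8.28 and 3.64 CPM in input and at 0.864, 3.50 and 12.1 CPM in IP, with overlapping groups (log2 fold -0.32 with SE 0.87, edgeR adjusted p = 0.80). Its log2 fold was 0.39 without pair 1 and -1.99 without pair 3. Ppm1h, a phosphatase of Rab proteins, was called higher at a log2 fold of 0.75 (SE 0.20, edgeR adjusted p = 0.011), a call lost without pair 1 or 2 (adjusted p = 0.057 to 0.061) and with the length correction (adjusted p = 0.41).

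**Figure D5:**
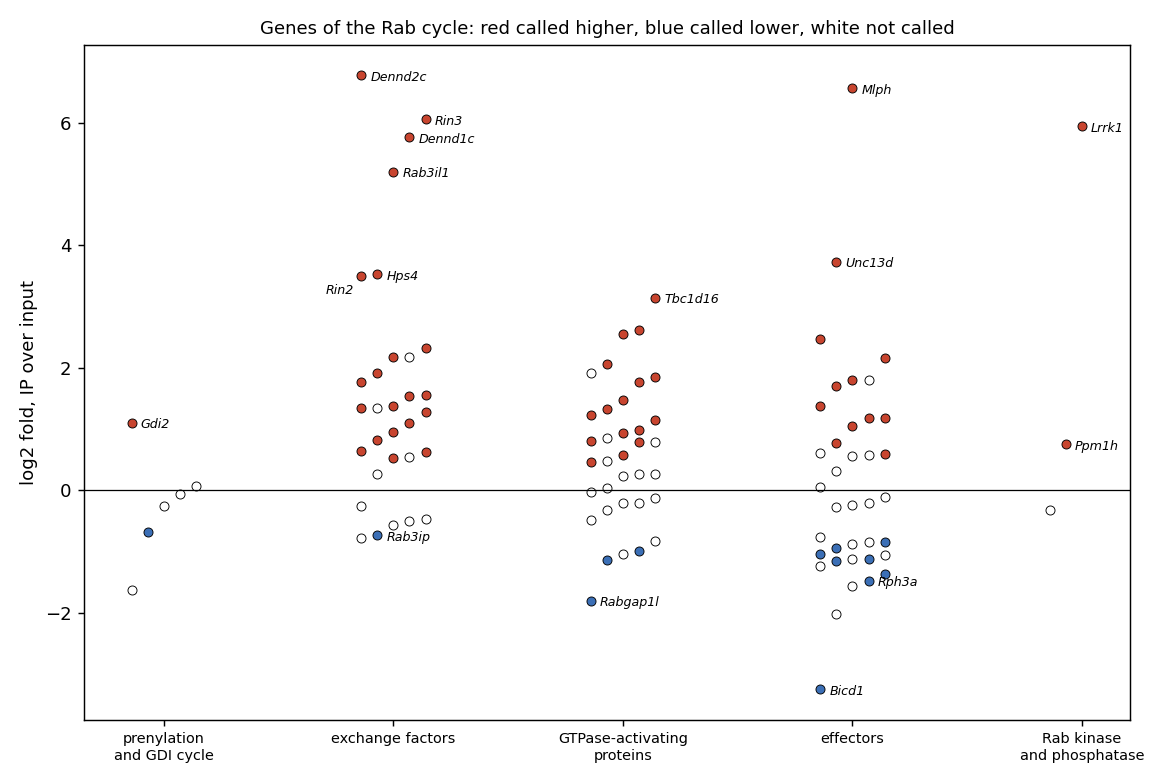
Log2 fold of IP over input for tested genes of the 5 lists of the Rab cycle, without Dennd2d, which had no count in IP, and without a gene not reported here, with red points called higher, blue called lower and white not called. Of the 32 exchange factors 21 are red, up to Dennd2c at 6.78, while effectors hold 12 red and 8 blue points.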

How the data were processed

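Counts per gene were deposited by the authors as raw whole numbers, with no normalization. The build mm10 and the tools bcl2fastq 2.17, Trimmomatic and FastQC are named, without their roles, per the submitters' processing notes, and per the labels' protocols the library kit was stranded. No source used here gives the aligner, the counting program or its strand setting. Gene IDs were matched to GENCODE M21 on GRCm38, which named 37693 and left 1324 without a symbol.

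The 3 IP and 3 input libraries were compared with edgeR 4.0.16 (TMM factors, filterByExpr with a minimum count of 10, robust quasi-likelihood F test, prior count 0.125, R 4.3.3). P-values were adjusted over all 16196 tested genes, and a gene was called at an adjusted p under 0.05. All adjusted p-values in the text are from that fit or from a named alternative (limma 3.58.1, DESeq2 1.42.0, or edgeR with another setting, including libraries or pairs left out). The code was tested on simulated data with known changes, where 77 genes were called, 6 of them falsely. In that simulation 20.4% of 2-fold and 54.2% of 4-fold changes were recovered, so a gene not called may still differ. CPM per kilobase used merged exon length. The title code entered as a block only in an alternative. Family members, lists and tests were chosen with earlier results of these data known. Values in every library are given for the 10 called members with the highest and the 10 with the lowest fold, the 5 most abundant in each group, the tested members of both lists, and sets of relatives called in opposite directions, and of each list of the Rab cycle the 2 called genes with the largest fold in each direction are named. The result of 1 gene of these lists is not reported here.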

Additional observations from a re-analysis of the deposited data

How the results depend on the processing

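Leaving out a library or a pair gave 8 to 12 higher and 16 to 21 lower Rab genes, 5 to 7 higher myeloid and 9 to 10 lower neuronal members, and, of the genes that control the Rab cycle, 42 to 52 higher and 8 to 17 lower. The lowest of these, 8 lower, came without pair 1, against 15 with all libraries. Over all tested genes the fits with a library or pair left out called 17.2% to 22.8% higher and 15.2% to 24.5% lower. Both lowest shares came without pair 1, and the main fit gave 23.8% and 23.9%. With a 2-fold minimum 5 Rab genes were higher and 12 lower, and 24 genes of the Rab cycle were higher and 2 lower. That minimum left 13.4% of all tested genes called higher and 12.5% lower. Of the genes of the Rab cycle, 52 were higher and 15 lower in the main fit, 38 and 24 with the length correction, and 23 were lower with limma-voom. All tested genes gave 22.4% higher and 24.4% lower with the length correction, and 28.2% lower with limma-voom. Rab22a reversed, to a log2 fold of -0.0720 with the length correction and -0.0903 with that correction plus the block. Libraries of the same title code had deviations that correlated at 0.05, 0.23 and 0.16, each the highest for its library, but the labels do not say what a code shares. With the replicate block, 10 Rab genes were higher and 19 lower, 7 myeloid members were higher and 10 neuronal members lower, and 55 genes of the Rab cycle were higher and 16 lower. The block gave 22.8% higher and 23.4% lower over all tested genes. The adjusted p was then 0.070 for Rab11a, 0.054 for Rab22a, 0.053 for Rab40c, 0.061 for Rabif and 0.17 for Dennd2d. Upper-quartile factors moved the median log2 fold of all genes from -0.10 to -0.23 and that of the Rab genes from -0.49 to -0.62. Of the 32 called members, 20 kept the call in every alternative but the 2-fold minimum, and 12 lost it with a library or pair left out. Of the members not called, 12 gained a call in some alternative, which were Rab4b, Rab7, Rab11b, Rab12, Rab13, Rab18, Rab29, Rab30, Rab33b, Rab34, Rab38 and Rab42. The causes were not tested. With 3 libraries a group, low members such as Rab7b, Rab37, Rab38 and Rab42 could not be placed.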

Other observations

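Choroid plexus markers differed between title codes more than between groups. The sum of 5 such markers was 3802, 2677 and 28.2 CPM in inputs 1, 2 and 3 and 618, 493 and 11.2 CPM in IPs 1, 2 and 3, and none of the 5 was called. Rab3b was lowest in the libraries of the same code 3, with 48.6 CPM for input and 0.560 for IP, and the part of choroid plexus RNA in that was not tested.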
